A study of Ovis aries with 16 samples.

Results

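In the fetal sheep liver, 5 genes of the protein synthesis machinery were followed, out of 26478 genes in the count table. They are the initiation factor gene *EIF4B* (ENSOARG00020009127), the canonical ribosomal protein genes *RPLP0* (ENSOARG00020021193) and *RPL12* (ENSOARG00020018336), and the L paralogs *RPL26L1* (ENSOARG00020019301) and *RPS27L* (ENSOARG00020008837). All 5 came from the list of genes that the study called between hypoxic and normoxic livers on these same animals. Their differences between those groups are therefore given as a description and were not tested, and the tests below concern sex and the variation between livers within a group. A minimum of 250 reads in 8 or more livers was set, and all 5 passed it, as did 8580 genes in all. All 5 rows were found by the symbols that the study paired with identifiers in a supplementary list, and the *EIF4B* row was checked against an identifier given beforehand. The study assigned part of its symbols by homology to human genes, so the identity of each row rests on that assignment.

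Liver RNA of 16 Welsh Mountain sheep fetuses at 0.9 of gestation was sequenced after polyA enrichment, 1 library per fetus. The normoxic group (CON) held 9 fetuses (5 male, 4 female) whose mothers breathed atmospheric oxygen. The hypoxic group (HOX) held 7 fetuses (3 male, 4 female) whose mothers lived in isobaric hypoxic chambers for 30 days of late pregnancy. All were singletons. The labels place collection at about day 130 of gestation. The methods of the study give a later day, and the disagreement was not resolved. Counted reads ranged from 24065959 to 29353692 per CON liver and from 23955166 to 33952503 per HOX liver. Levels are normalized counts, in CPM (counts scaled to a common library size) after normalization by trimmed mean of M values (TMM), given as mean ± SD. They compare livers for 1 gene and are not levels per gene length, so genes are not ranked against each other.

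EIF4B is a cofactor of the RNA helicase EIF4A, which unwinds the leader of an mRNA so that the small ribosomal subunit can load and scan. RPLP0 is the base of the stalk of the large subunit and RPL12 lies beside it, and the stalk is where elongation factors are recruited during each round of peptide synthesis. The mRNAs of ribosomal proteins and of several translation factors share a terminal oligopyrimidine tract through which mTOR signalling controls their translation. RPL26L1 and RPS27L closely resemble the ribosomal proteins RPL26 and RPS27 and are encoded by separate genes, and *RPS27L* is a known target of the tumour suppressor p53. Counts of *RPL26* and *RPS27* themselves were not analysed here, so an L paralog is not set against its own counterpart. Genomes hold many near-identical processed copies of ribosomal protein genes, and the rule for assigning reads to genes is not given in the sources used here, so the counts of the 4 ribosomal genes are uncertain to that extent. In the RefSeq annotation of another sheep assembly, ARS-UI_Ramb_v3.0, a small nucleolar RNA gene lies within *RPL12*, and no annotated gene overlaps the other 4.

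The canonical genes *RPLP0* and *RPL12* and also *EIF4B* were higher in HOX than in CON livers, by 1.19-fold to 1.26-fold. Both L paralogs were lower, *RPS27L* at 0.749-fold and *RPL26L1* at 0.915-fold of the CON level. Of 80 listed cytosolic ribosomal protein genes 2 had a symbol, as did 2 of 9 ribosomal protein paralogs and 2 of 40 initiation factors. The contrast covers these 5 genes and not their classes. Every HOX liver lay above the CON mean for *EIF4B* and *RPL12* and below it for *RPS27L*. For *RPLP0*, 6 of the 7 lay above it, and for *RPL26L1*, 6 of the 7 lay below it. Among the 8580 tested genes, 3.62% had all HOX livers above the CON mean and 4.8% had all of them below. The CON and HOX ranges overlapped in all 5 genes, as in most genes, since 0.0117% of the tested genes had all HOX livers above the CON range and 0.0699% had all of them below. In bulk tissue, fewer cells of a type and less RNA per cell cannot be told apart, which holds for each of these differences.

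*EIF4B* ranged from 158 to 209 CPM in CON livers (median 174) and from 189 to 236 in HOX livers (median 219). The mean was 178 ± 14.6 in CON (*n* = 9) and 216 ± 15.7 in HOX (*n* = 7). HOX animals 1, 2, 3, 4 and 7 lay above every CON liver, at 218 to 236 CPM, and HOX animals 5 (189) and 6 (201) lay within the CON range. CON animal 5, at 209 CPM, was the CON liver closest to the HOX group. The log2 fold change was 0.28 (SE 0.0727), a fold of 1.21, and it stayed between 0.26 and 0.33 over the fits that each dropped 1 liver. The gene had at least 3719 reads in every liver.

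*RPLP0* ranged from 386 to 545 CPM in CON livers (median 422) and from 399 to 670 in HOX livers (median 536). The means were 440 ± 49.1 CPM in CON and 555 ± 94.0 CPM in HOX. HOX animals 1 (584), 4 (660) and 7 (670) were above the CON range, and all 3 are female. HOX animal 5, a male at 399 CPM, was the one HOX liver below the CON mean and was close to the lowest CON livers. The log2 fold change was 0.33 (SE 0.106), a fold of 1.26, and it was 0.42 without HOX animal 5. Its spread between HOX livers was wider than between CON livers, with a coefficient of variation of 16.9% against 11.2%, a difference that was not tested.

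*RPL12* ranged from 155 to 222 CPM in CON livers (median 189) and from 189 to 250 in HOX livers (median 221). The means were 188 ± 21.8 and 223 ± 21.0 CPM. HOX animals 2 (228), 4 (250) and 7 (244) exceeded the highest CON liver, animal 9 at 222 CPM, and the remaining HOX livers were inside the CON range. HOX animal 5 was again the lowest of its group. The log2 fold change was 0.25 (SE 0.0875), a fold of 1.19, with values from 0.22 to 0.30 over the fits that each left out 1 liver.

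*RPS27L* showed the reverse order. It ranged from 73.2 to 97.7 CPM in CON livers (median 82.8) and from 52.0 to 79.3 in HOX livers (median 57.7). The means were 83.4 ± 8.54 and 62.5 ± 10.9 CPM. HOX animals 1, 2, 3, 4 and 6 lay below every CON liver, at 52.0 to 66.9 CPM, and HOX animals 5 (79.3) and 7 (73.8) overlapped the lower CON livers. The log2 fold change was −0.42 (SE 0.104), a fold of 0.749, which placed it at percentile 3.55 of the log2 fold changes of all tested genes. It stayed between −0.47 and −0.36 when single livers were left out.

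*RPL26L1* was the sparsest of the 5, with 215 to 828 reads per liver (median 324) and 14 of 16 livers at or above the read minimum. Counting error alone amounts to about 0.080 on the log2 scale at its typical depth. It ranged from 9.74 to 16.4 CPM in CON livers (median 13.6) and from 8.46 to 24.1 in HOX livers (median 9.82). HOX animals 2, 3 and 7 lay below every CON liver, at 8.46 to 9.31 CPM, whereas HOX animal 1 lay above all other livers at 24.1 CPM. The means were 13.5 ± 2.07 CPM in CON and 12.3 ± 5.51 CPM in HOX, and the HOX mean without animal 1 was 10.4 ± 1.99 CPM (*n* = 6). The log2 fold change was −0.13 (SE 0.196) with all livers and −0.38 without HOX animal 1, so 1 liver decides the size of this difference. HOX animal 1 also stood apart on the first principal component of all tested genes, at 64.4 against −15.6 to 6.2 for the other livers.

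**Figure D1:**
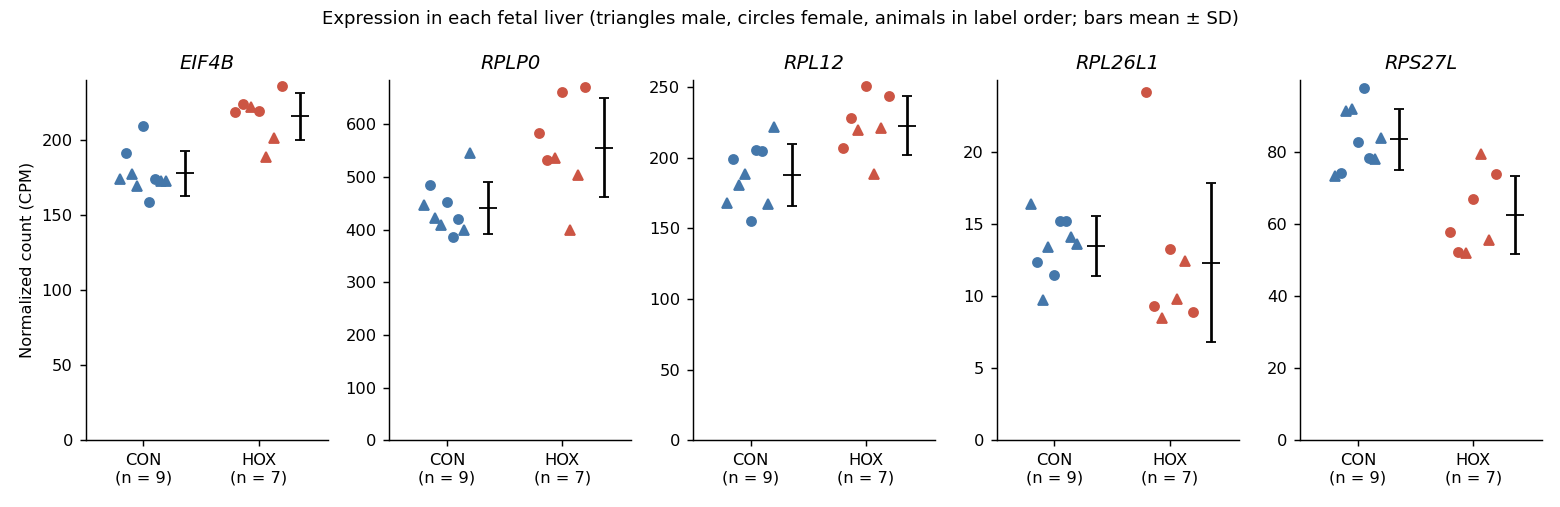
Normalized counts (CPM, y axis, each panel from 0) of *EIF4B*, *RPLP0*, *RPL12*, *RPL26L1* and *RPS27L* in each CON (*n* = 9) and HOX (*n* = 7) liver, with triangles for males, circles for females and black bars for mean ± SD. The HOX points of *EIF4B* sit mostly above the CON points (216 against 178 CPM on average), those of *RPS27L* mostly below (62.5 against 83.4 CPM), and HOX animal 1 stands alone at 24.1 CPM for *RPL26L1*.

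**Figure D2:**
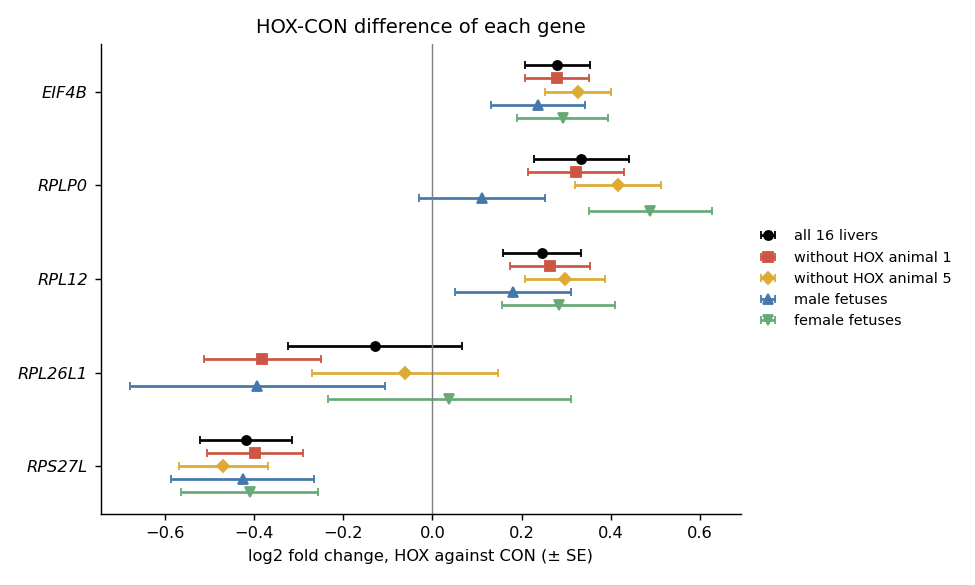
Log2 fold change of HOX against CON (x axis, ± SE) of each of the 5 genes with all 16 livers, without HOX animal 1, without HOX animal 5, and in male and female fetuses separately. *EIF4B*, *RPLP0* and *RPL12* lie to the right of 0 and *RPS27L* to the left in all 5 settings, and *RPL26L1* moves from −0.13 to −0.38 when HOX animal 1 is left out.

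The difference between canonical and L genes was also read within each liver, where library size cancels. The measure was the mean log2 CPM of *RPLP0* and *RPL12* minus that of *RPL26L1* and *RPS27L*. It was 3.10 ± 0.176 in CON livers (2.87 to 3.36) and 3.70 ± 0.333 in HOX livers (3.22 to 4.02), where the absolute size reflects the read numbers of these particular genes and only the shift between livers is informative. The shift was 0.60 on the log2 scale, a fold of 1.52, and it was 0.68 without HOX animal 1. Since the study's list fixed which genes were higher and which lower, the direction of this shift carries no test.

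HOX animals 2, 3, 4, 6 and 7 lay above all CON livers, at 0.56 to 0.93 over the CON mean. HOX animals 1 (0.12) and 5 (0.19) lay within the CON range, and they did so in different ways. In HOX animal 5 the canonical genes were low and *RPS27L* was high relative to the other HOX livers. In HOX animal 1 the high *RPL26L1* value offset the values of the other 3 genes.

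The ratio of *RPLP0* to *RPS27L*, a pair picked after its values were seen, separated the groups further. A CON liver had 3.95 to 6.53 *RPLP0* reads for each *RPS27L* read (5.34 ± 0.913), and a HOX liver had 5.03 to 10.3 (9.10 ± 1.87). HOX animals 1, 2, 3, 4, 6 and 7 were all at or above 9.07 *RPLP0* reads per *RPS27L* read, clear of the CON range, and HOX animal 5 was at 5.03, below the CON mean. *RPL12* reads per *RPS27L* read gave the same layout, from 1.87 to 2.69 in CON livers and from 2.38 to 4.38 in HOX livers, with HOX animal 5 lowest at 2.38. *RPL12* reads per *RPL26L1* read ranged from 10.2 to 18.6 in CON and from 8.59 to 27.5 in HOX livers, with HOX animal 1 lowest.

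**Figure D3:**
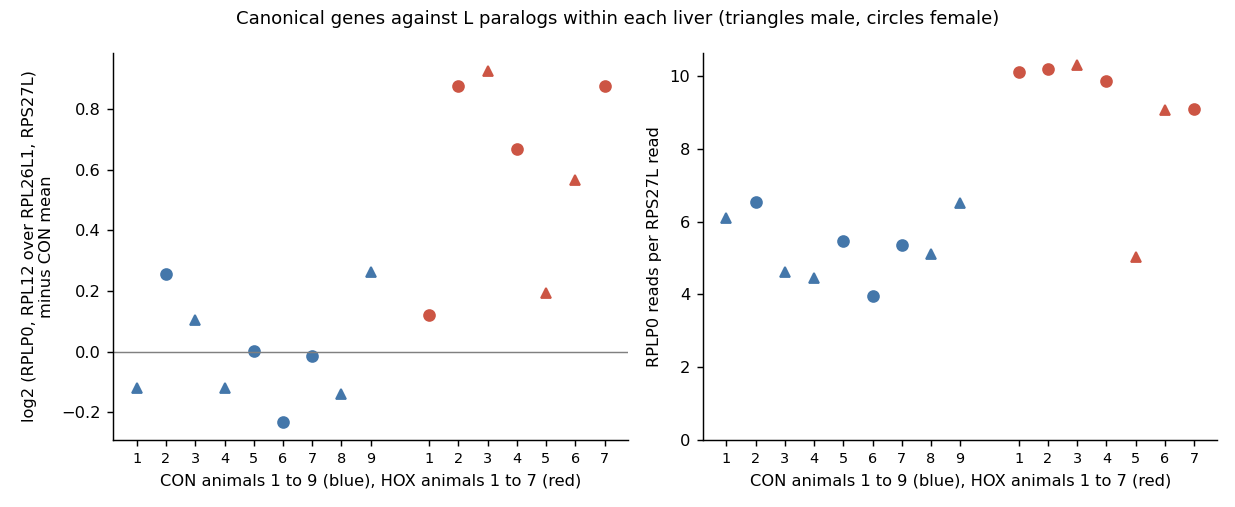
Left, mean log2 CPM of *RPLP0* and *RPL12* minus that of *RPL26L1* and *RPS27L*, relative to the CON mean (y axis), in each CON (blue) and HOX (red) animal (x axis), with triangles for males and circles for females. Right, *RPLP0* reads per *RPS27L* read in the same livers, where 6 HOX livers lie at 9.07 to 10.3, HOX animal 5 lies at 5.03, and the CON livers lie at 3.95 to 6.53.

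Fetal sex was a comparison that the choice of genes did not use. In an edgeR quasi-likelihood fit with treatment as a covariate, females exceeded males by 0.11 (SE 0.0706) on the log2 scale for *EIF4B*, by 0.14 (SE 0.106) for *RPLP0*, by 0.09 (SE 0.0880) for *RPL12* and by 0.20 (SE 0.198) for *RPL26L1*, each with an edgeR adjusted *P* of 0.974. For *RPS27L* the difference was −0.00045 (SE 0.106). None of the 5 genes passed the adjusted *P* threshold of 0.15 with edgeR or DESeq2, none had an unadjusted *P* under 0.05, and 0.0233% of all tested genes passed with edgeR. For *RPL26L1*, the standard error of the sex difference was as large as the difference itself.

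Within each sex, *EIF4B* was higher in HOX, at 173 ± 2.99 CPM in CON males (*n* = 5) against 204 ± 16.8 in HOX males (*n* = 3), and at 183 ± 22.0 in CON females (*n* = 4) against 224 ± 8.20 in HOX females (*n* = 4). The log2 fold change was 0.24 (SE 0.105) in males and 0.29 (SE 0.102) in females. *RPS27L* was also lower by like amounts, −0.43 (SE 0.161) in males and −0.41 (SE 0.154) in females. *RPL12* stood at 0.18 (SE 0.130) in males and 0.28 (SE 0.126) in females.

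The other pair of genes differed more between the sexes in value. *RPLP0* was at 444 ± 58.9 CPM in CON males, 479.5 ± 71.9 in HOX males, 436 ± 42.0 in CON females and 612 ± 65.4 in HOX females, with log2 fold changes of 0.11 (SE 0.141) in males and 0.49 (SE 0.137) in females. The interaction of sex and treatment for *RPLP0* was 0.38 (SE 0.197), with an edgeR adjusted *P* of 0.999, and it was 0.26 without HOX animal 5. For *RPL26L1* the log2 fold changes were −0.39 (SE 0.286) in males and 0.04 (SE 0.272) in females, and the interaction of 0.43 (SE 0.394, edgeR adjusted *P* = 0.999) was 0.0088 without HOX animal 1, which is female. The interactions of *RPL12* (0.10, SE 0.182), *EIF4B* (0.05, SE 0.147) and *RPS27L* (0.02, SE 0.221) had the same edgeR adjusted *P* of 0.999. Over all tested genes edgeR called 0 for the interaction, with 281 at an unadjusted *P* under 0.05, and DESeq2 called 6 (edgeR 0.0% of genes), so a difference in response between the sexes was not resolved for the 5 genes.

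Between CON livers, *EIF4B* was among the least variable genes tested, with an SD of 0.11 on the log2 scale at percentile 5.06 of all tested genes. *RPS27L* (SD 0.15, percentile 13.5), *RPLP0* (SD 0.15, percentile 16.4) and *RPL12* (SD 0.17, percentile 22.1) also varied little. *RPL26L1*, with an SD of 0.23 at percentile 47.4, was near the middle of all genes. The study's test on these same livers weighed each difference against the spread within groups. These percentiles are therefore not independent of how the genes were picked. They were also not matched for level, which in CON livers was at percentile 97.8 for *RPLP0* and 14.8 for *RPL26L1*. Between HOX livers the SD was 0.11 for *EIF4B*, 0.26 for *RPLP0*, 0.14 for *RPL12*, 0.25 for *RPS27L* and 0.53 for *RPL26L1*, the last being 0.26 without HOX animal 1.

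Whether the genes varied together from liver to liver was examined within each group, with 10 gene pairs per group and exact two-sided permutation tests. In CON livers (*n* = 9) no pair passed an adjusted *P* of 0.05, and the canonical ribosomal genes *RPLP0* and *RPL12* had Pearson's r of 0.31 (exact permutation *P* = 0.428, adjusted *P* = 0.633) and Spearman's rho of 0.07 (exact permutation *P* = 0.880). Without CON animals 9 and 2, the 2 livers farthest from the median of *RPLP0*, r was −0.65. *EIF4B* had r of 0.40 with *RPLP0* (exact permutation *P* = 0.279) and −0.52 with *RPL12* (exact permutation *P* = 0.15). With 9 livers, only strong relations could have been resolved.

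In HOX livers (*n* = 7) the same 3 genes had higher coefficients. *RPLP0* and *RPL12* had r of 0.86 (exact permutation *P* = 0.0139, adjusted *P* = 0.0933) and rho of 0.64 (exact permutation *P* = 0.139). *EIF4B* had r of 0.86 with *RPLP0* (exact permutation *P* = 0.0187, adjusted *P* = 0.0933; rho 0.68, exact permutation *P* = 0.110) and r of 0.75 with *RPL12* (exact permutation *P* = 0.0542, adjusted *P* = 0.181). No pair passed an adjusted *P* of 0.05. Without the 2 HOX livers farthest from the median, r fell to 0.55 for *RPLP0* and *RPL12* and to 0.39 for *EIF4B* and *RPLP0*, and without HOX animal 5 alone it was 0.67 and 0.64. These relations therefore depend in part on HOX animal 5, which was the lowest HOX liver in all 3 genes. The L paralogs had r of −0.12 with each other in HOX livers (exact permutation *P* = 0.844). Whether the coefficients differ between CON and HOX was not tested.

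The named genes whose levels followed each of the 5 most closely over the 9 CON livers were read from the 428 tested genes with a symbol, all of which the study had picked on these livers. They are descriptions over few points that share depth and normalization, and carry no *P*. *EIF4B* was followed by *FBXO7*, a substrate-binding subunit of a ubiquitin ligase (r 0.84), *LDB1*, a LIM domain-binding cofactor (r 0.83), and *TNRC6C*, a microRNA silencing protein (r 0.83). *RPLP0* was followed by *NT5DC2* (r 0.72), the histone deacetylase *HDAC7* (r 0.71) and *RASAL3*, a Ras GTPase-activating protein (r 0.69). In HOX livers *NT5DC2* had r of 0.93 with *RPLP0*, whereas *RASAL3* had −0.08.

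*RPL12* was followed in CON livers by the glutaredoxin gene *GLRX* (r 0.85), *TMA7*, named for its association with the translation machinery (r 0.83), and *AGPAT1*, an acyltransferase of phospholipid synthesis (r 0.82, against −0.74 in HOX livers). *RPL26L1* was followed by the calcineurin regulator *RCAN1* (r 0.84, and 0.83 in HOX livers), the glycine cleavage protein gene *GCSH* (r 0.82) and *TIPARP* (r 0.79). *RPS27L* was followed by the iodotyrosine deiodinase *IYD* (r 0.90), the recombination protein gene *SWI5* (r 0.89) and *GALT*, an enzyme of galactose breakdown (r 0.88). The 3 genes that followed *RPL12* were all lower in HOX (log2 fold changes of −0.56 for *GLRX*, −0.30 for *TMA7* and −0.25 for *AGPAT1*), although *RPL12* itself was higher there. Tested genes with a higher r existed for each of these named genes, from 5 above *IYD* for *RPS27L* to 126 above *RASAL3* for *RPLP0*. Over the CON livers none of the 5 genes was close to another in the ranking of all 8579 other tested genes. The nearest was *EIF4B* at rank 1278 for *RPLP0*. Over the HOX livers *RPLP0* was at rank 47 for *EIF4B*, and *RPL12* was at rank 89 for *RPLP0*. No HOX rank that involved an L paralog was nearer than 2640.

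**Figure D4:**
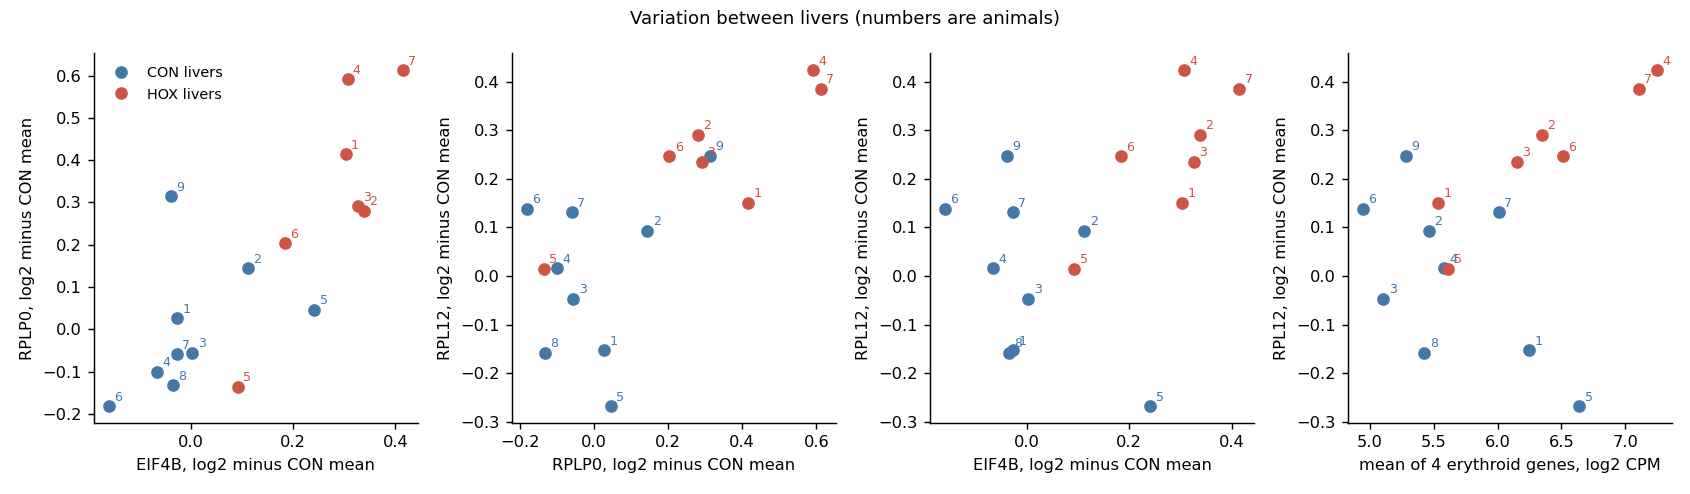
Each point is 1 liver (blue CON, red HOX, numbered by animal). The first 3 panels plot log2 levels of *EIF4B*, *RPLP0* and *RPL12* against each other relative to the CON mean, where HOX animal 5 lies at the low end of the HOX points, and the right panel plots *RPL12* against the mean log2 CPM of *ANK1*, *CPOX*, *TFRC* and *EPOR*, where the HOX points rise together (r 0.93) and the CON points do not (r −0.60).

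The fetal liver is a site of red cell formation as well as of hepatocytes, and markers of both were read where they had a symbol, which means that the study had picked them on these livers. The 4 of 23 erythroid markers with a symbol were *ANK1* (membrane skeleton), *CPOX* (haem synthesis), *TFRC* (iron uptake) and *EPOR* (erythropoietin receptor). All 4 had higher values in HOX. With all livers edgeR, DESeq2 and limma-voom each called 0 of them, against 0.0583%, 2.76% and 1.7% of all tested genes. All 4 had an unadjusted edgeR *P* under 0.05, as did 1022 of the 8580 tested genes. Their summed level was 170 to 533 CPM in CON livers (median 248) and 259 to 772 CPM in HOX livers (median 441). Of 28 hepatocyte markers 9 had a symbol and 8 had lower values in HOX, with sums of 21445 to 31982 CPM in CON and 15530 to 24259 CPM in HOX. *HGFAC* was the 1 with a higher value (log2 fold change 0.43, SE 0.134). Of the 9, edgeR called 0, DESeq2 5 and limma-voom 2, and all 9 had an unadjusted edgeR *P* under 0.05. The study had picked these genes for this difference, so the counts carry no test. *AFP*, the fetal plasma protein alpha-fetoprotein, was spread widely between CON livers, from 47.1 to 2156 CPM (603 ± 654). It was at 18.2 to 132 CPM in HOX, and its difference of −2.99 (SE 0.665) on the log2 scale was the lowest of the 9. Haemoglobin genes and the other markers of these lists were not analysed here.

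The mean log2 level of the 4 erythroid genes was set against each of the 5 genes within each group, 5 relations per group. Adjustment was made over the 5 relations of a group, and a stricter adjustment over both groups together was not made. The adjusted *P* under 0.05 given next for *RPL12* therefore holds for the 5 relations of its group only. In HOX livers *RPL12* followed it with r of 0.93 (exact permutation *P* = 0.00536, adjusted *P* = 0.0268) and rho of 0.93 (exact permutation *P* = 0.00675, adjusted *P* = 0.0337), and r was 0.96 without the 2 livers farthest from the median of *RPL12*. HOX animals 4 and 7 were highest in both, and HOX animals 1 and 5 were lowest in both. In CON livers the coefficient for *RPL12* was −0.60 (exact permutation *P* = 0.0867, adjusted *P* = 0.217), and the difference between the groups was not tested. In HOX livers *RPLP0* had r of 0.70 (exact permutation *P* = 0.0744, adjusted *P* = 0.186), *EIF4B* 0.51, *RPS27L* 0.14 and *RPL26L1* −0.33, and none of these passed. In CON livers *EIF4B* had r of 0.65 (exact permutation *P* = 0.0583, adjusted *P* = 0.217). The part of the erythroid and hepatocyte differences in the HOX-CON differences of the 5 genes was not tested.

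Other genes of the pathway with a symbol were few and, like the 5, had all been picked by the study on these livers, so their directions are not independent evidence. The elongation factor gene *EEF1A1*, whose product delivers aminoacyl-tRNA to the ribosome, was at 1526 ± 132 CPM in CON (1383 to 1770) and 1810 ± 174 CPM in HOX livers (1581 to 2047), with a log2 fold change of 0.25 (SE 0.0841). HOX animal 5 was lowest of its group in this gene too, and HOX animals 1 and 7 were highest. *EEFSEC*, the elongation factor for selenocysteine, was at 11.6 ± 2.18 and 15.9 ± 1.76 CPM (log2 fold change 0.46, SE 0.118). *DPH7*, which takes part in making diphthamide on elongation factor EEF2, was lower by value, at −0.20 (SE 0.115).

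*BZW2*, a regulator of initiation and the other listed initiation gene with a symbol, was at 25.3 ± 3.22 CPM in CON and 29.3 ± 24.5 CPM in HOX livers. Its HOX mean rests on HOX animal 1 at 84.3 CPM, and its log2 fold change of 0.21 (SE 0.288) became −0.33 without that liver. Among p53 target genes, 3 of 18 had a symbol. They were *BAX*, a promoter of cell death, at −0.28 (SE 0.129), *PPM1D*, a phosphatase that restrains p53, at 0.48 (SE 0.155), and *RPS27L*, so the 3 did not share a direction.

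Of 82 ribosome biogenesis genes 15 had a symbol, and 13 of these were lower and 2 higher in HOX, with a median log2 fold change of −0.23 against 0.0054 over all tested genes, of which 51.2% were above 0 and 48.8% below. Because the study picked these 15 for their HOX-CON difference, the counts and the median describe them alone and say nothing of the other genes of the list. *URB2* (0.45, SE 0.130) and *IMP4* (0.08, SE 0.288) were the 2 higher, but *IMP4* turned to −0.47 without HOX animal 1, which left 14 lower and 1 higher. *GPATCH4* (−0.44, SE 0.168), *NHP2* (−0.21, SE 0.238) and *NOP10* (−0.23, SE 0.117), the last pair being core proteins of box H/ACA particles, were among the lower. Of 78 mitochondrial ribosomal protein genes 9 had a symbol, picked in the same way, with 8 of them lower and a median of −0.21. edgeR called 0 genes of either list, against 0.0583% of all tested genes, while DESeq2 called 2.76% and limma-voom 1.7% of all tested genes. Of the 15 biogenesis genes, 7 had an unadjusted edgeR *P* under 0.05, as did 1022 of the 8580 tested genes, and DESeq2 and limma-voom each called 3. Of the 9 mitochondrial genes the numbers were 2 at that unadjusted *P*, and 2 called by each of the other tools. Without HOX animal 1, a choice made after seeing the data, DESeq2 called all 15 and all 9, and 523 of 8490 tested genes. The study had called these same genes with DESeq2 on these livers, so both full counts largely return its list and carry no test. HOX animal 1 again stood apart, with a summed level of 779 CPM for the biogenesis genes against a HOX median of 383, and without it the medians were −0.38 and −0.33.

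**Figure D5:**
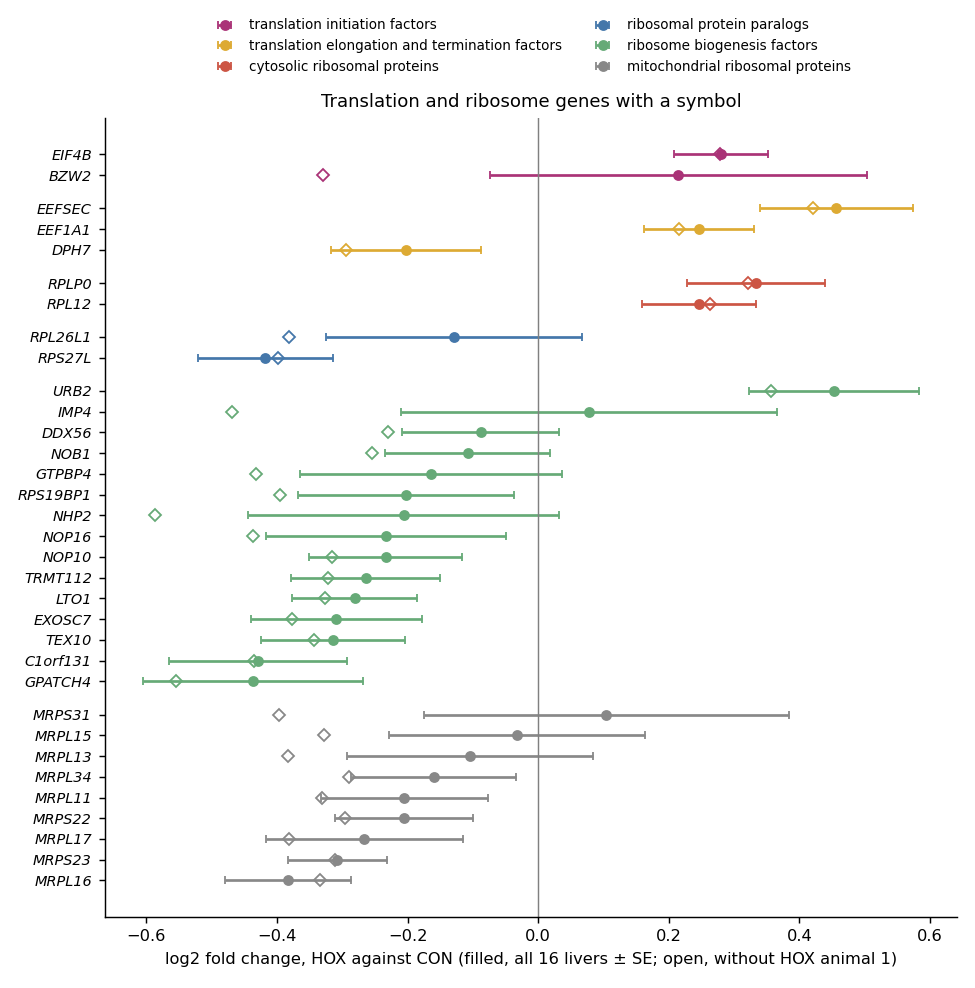
Log2 fold change of HOX against CON (x axis) for each gene with a symbol in 6 lists of translation and ribosome genes, as filled points ± SE with all 16 livers and as open diamonds without HOX animal 1. *EIF4B*, *EEF1A1*, *EEFSEC*, *RPLP0* and *RPL12* lie to the right of 0 with and without that liver, *RPL26L1* and *RPS27L* to the left, and most ribosome biogenesis and mitochondrial ribosomal protein genes lie to the left and move further left without HOX animal 1.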

How the data were processed

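The authors enriched polyA RNA from frozen fetal liver and mapped paired reads with STAR (2.7.10b per the labels) to the sheep assembly ARS-UI_Ramb_v1.0 with Ensembl gene models. What they deposited are whole-number counts of reads per gene, neither normalized nor filtered. The counting rule and its use of strand are not given in the sources used here. The table lists 26478 identifiers for 16 livers, 5307 of them at 0 throughout, and symbols came from the study's supplementary list of 487 identifiers and 438 symbols. Groups and sex were taken from the labels. No pair of libraries of the same group agreed within sampling noise (lowest chi-square per degree of freedom 63.2). Pairs of a CON and a HOX library were not compared in this way.

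A gene was kept when 8 or more livers had 250 or more reads for it (8580 genes, 97.7% of the reads). Counts were fitted with edgeR 4.0.16 in R 4.3.3 (TMM, quasi-likelihood test, Benjamini-Hochberg adjustment), and genes were called at an adjusted *P* under 0.15, the study's threshold. The study used DESeq2, which was run here as an alternative (1.42.0), as was limma-voom (limma 3.58.1). HOX was compared with CON without covariates, females with males with treatment as a covariate, and the interaction of sex and treatment in 1 model. Log2 CPM values used a prior count of 2. Correlations used exact permutation tests in scipy 1.17.1.

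The tests were run on simulated counts of 8580 genes, 200 of which had a log2 change of 1. Of the 200, edgeR found 190 between HOX and CON with 31 false calls, and 189 between the sexes with 26. For the interaction, with a log2 change of 2, it found 192 with 25. Effects of the size seen in the 5 genes, which were smaller in each of these comparisons, were not simulated.

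The 5 genes and the gene lists were chosen with earlier results of these data known. The genes named are the 5, the 3 named genes closest to each over CON livers by Pearson's r, and genes with a symbol from the translation, ribosome, p53, erythroid and hepatocyte lists. Not every such gene of these lists is named. Markers of macrophages, endothelium and stellate cells with a symbol were also read and are not reported. Replicates are separate fetuses. Alternatives changed the test, normalization, read minimum, covariate and pairing, and left out each liver in turn. No sequence is printed.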

Additional observations from a re-analysis of the deposited data

Results flagged for a closer look

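*RPL26L1* in HOX animal 1, a female, stood apart from the other HOX livers. Its log2 CPM was 4.60 (24.1 CPM), and its gap to the nearest HOX liver was 0.574 of the range of the 7 HOX livers, past Dixon's critical value of 0.568. The other HOX livers ranged from 8.46 to 13.2 CPM. The 5 genes, their canonical-to-L difference and the *EEF1A1* level were examined in both groups, 14 groups of values in all, and chance alone passes this limit in about 1 of 20. The same liver scored 64.4 on the first principal component, had 828 reads on *RPL26L1*, the highest number of any liver, and had the highest HOX levels of *BZW2* and of the summed ribosome biogenesis genes. Without it the log2 fold change of *RPL26L1* was −0.38.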

How the results depend on the processing

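With both sexes fitted together, the direction of all 5 HOX-CON differences and of the canonical-to-L shift held under every alternative run. A shift of 1.5 times or more was seen there for *RPL26L1* only. In the fit by sex, which was not one of these alternatives, *RPL26L1* was at 0.04 in females and *RPLP0* at 0.11 in males. The number of genes called was less stable. Between HOX and CON edgeR called 5 genes, DESeq2 237, limma-voom 146, edgeR on total counts only 1, edgeR with no read minimum 1, and 1 to 47 when single livers were left out (47 without HOX animal 5). DESeq2 without HOX animal 1, chosen after seeing the data, called 523. Between females and males edgeR called 2 genes, DESeq2 7, CON livers alone 0, a read minimum in 9 or more livers 1, and 1 to 2 with single livers left out. For the interaction edgeR called 0, DESeq2 6, and 0 to 3 with single livers left out (3 without HOX animal 4). The causes were not tested.

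Animal numbers did not pair the livers, since same-numbered livers had r from −0.31 to 0.15 between their deviations. With the animal number as a replicate block, edgeR called 0 genes between HOX and CON and 0 between the sexes (the latter added after seeing the data), and the canonical-to-L shift was 0.62.

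Signs turned in the following values. The interaction on total counts was −0.011 for *EIF4B* and −0.046 for *RPS27L*, and the *RPS27L* interaction ran from −0.093 to 0.23 with single livers left out. The sex difference of *RPLP0* was −0.019 in CON livers alone. That of *RPS27L* was 0.0063 with DESeq2, 0.00073 in CON livers, 0.0064 with DESeq2 size factors, 0.0090 on total counts, 0.00099 with no read minimum, 0.0036 with a read minimum in 9 or more livers and 0.020 with the replicate block, and −0.046 to 0.081 with single livers left out. The *RPLP0* and *RPL12* correlation was 0.31 in CON and 0.86 in HOX livers, and −0.21 to 0.52 with single CON livers left out (−0.21 without CON animal 9). *EIF4B* and *RPL26L1* in HOX livers had r of 0.053 on total counts and 0.057 with DESeq2 size factors, and *RPLP0* and *RPL26L1* in CON livers had 0.096 on total counts. With single HOX livers left out, r ran from −0.37 to 0.12 for *EIF4B* and *RPL26L1*, −0.71 to 0.47 for *EIF4B* and *RPS27L*, −0.41 to 0.92 for *RPLP0* and *RPS27L*, −0.48 to 0.25 for *RPL12* and *RPL26L1*, −0.40 to 0.71 for *RPL12* and *RPS27L*, and −0.34 to 0.080 for *RPL26L1* and *RPS27L*. With the erythroid mean it ran from −0.087 to 0.51 for *RPLP0* and −0.20 to 0.54 for *RPL26L1* in CON livers, and from −0.54 to 0.40 for *RPL26L1* and −0.11 to 0.70 for *RPS27L* in HOX livers. The relation of *RPL12* with the erythroid mean in HOX livers kept its sign and its unadjusted *P* under 0.05 in every alternative run. Depth limits *RPL26L1* most, and the group sizes limit every correlation.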

Other observations

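Over the 9 CON livers the level of *EEF1A1* followed *RPLP0* with r of 0.67, at rank 164 of 8579 other tested genes, and over the 7 HOX livers with 0.75, at rank 312. *EIF4B* had r of 0.47 with *EEF1A1* in CON and 0.78 in HOX livers, and *RPL12* had 0.23 and 0.36. *RPL26L1* had −0.65 with *EEF1A1* in CON and 0.38 in HOX livers, and *RPS27L* had −0.14 and −0.11. The pairs share depth and normalization, *EEF1A1* was itself picked by the study on these livers, and no test was run on these coefficients.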
